A study of Prunus avium with 6 samples.

Results

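Leaf RNA of 2 sweet cherry cultivars was compared, ‘Bing’ over ‘Lapins’. The members are the leaf libraries of these cultivars, chosen by their labels, 2 of the 6 libraries of the series, and each gene is given by its unique reads, the reads that mapped to that gene alone. The ‘Bing’ leaves came from Quillota and the ‘Lapins’ leaves from Los Andes, both in the Region of Valparaiso in Chile, with no treatment named in the labels. There was 1 library for each cultivar and the labels do not say how many trees it holds, so no value has a replicate check. A test on these reads compares 2 libraries rather than 2 cultivars, and the cultivar cannot be told apart from its site.

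A leaf spends much of its RNA on photosynthesis: the light reactions, the carbon-fixing Calvin cycle and the enzymes that keep chloroplast membranes from oxidising. Around this core lie photoreceptor and clock genes that follow the time of day. Jasmonate, a hormone made from chloroplast lipids, and WRKY transcription factors respond to wounding, pathogens and abiotic stress. The time of day of sampling is not given in the sources used here, and its part in the differences below was not tested.

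The ‘Bing’ leaf library held 89009 unique reads and the ‘Lapins’ leaf library 70058, within a range of 70058 to 116264 over all 6. Reads were set against these sums and are given per 10000 unique reads of the library. A count of 0 still allows 3 reads, or 0.337 reads per 10000 in ‘Bing’ leaf and 0.428 in ‘Lapins’ leaf. The intervals below are exact 95% intervals of the share ratio, ‘Bing’ over ‘Lapins’. They cover counting error only, as does the exact p given beside them, from the two-sided Fisher's exact test of the shares of the pair.

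Of 43673 predicted genes, 8406 had reads in both leaf libraries, 2825 in ‘Bing’ leaf alone and 1959 in ‘Lapins’ leaf alone. With the ‘Bing’ library thinned to the ‘Lapins’ read sum, these numbers were 8056, 2458 and 2309. Genes read on a single side carried 6.33% of the ‘Bing’ reads and 4.73% of the ‘Lapins’ reads. Of the 100 most read genes of each library, 73 were the same genes. The 10 most read genes took 6.33% of the ‘Bing’ reads and 7.91% of the ‘Lapins’ reads, and 5 of them were shared. Across the 2470 genes with at least 10 reads in at least 1 leaf library, log10(reads + 1) correlated between the libraries at 0.568. Across all 13190 genes with a read it was 0.689. Both values are descriptions across genes that share both libraries.

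A gene was called where the Z-test of its 2 shares gave p of at most 0.05, the shares differed at least 2-fold and at least 1 library held 10 reads. Of the 2470 genes with that depth, 313 (12.7%) were over-represented in ‘Bing’ leaf and 266 (10.8%) in ‘Lapins’ leaf, while 1891 were not called. The log2 ratio had a median of 0.14 and quartiles of -0.52 and 0.81, with 0.5 reads added to each count. With the Z-test p adjusted by the Benjamini-Hochberg method over the 13190 genes with a read, 70 genes (2.83%) were higher in ‘Bing’ leaf and 82 (3.32%) were higher in ‘Lapins’ leaf. A test that takes the spread from all 6 libraries (edgeR exact test) called 0 of 1864 genes at an adjusted p under 0.05, and 74 had an unadjusted p of at most 0.05. The spread used by the edgeR test was what tissue and cultivar left over in the 6 libraries, which hold no replicates. Ratios that differ between tissues add to it, so its result is not a replicate check. The plot of shares shows called genes on both sides of the diagonal. The most read called gene had 440 reads over both libraries on the ‘Bing’ side and 669 on the ‘Lapins’ side, while the most read gene of each library, with 1742 reads in ‘Bing’ leaf and 1865 in ‘Lapins’ leaf, was not called.

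**Figure D1:**
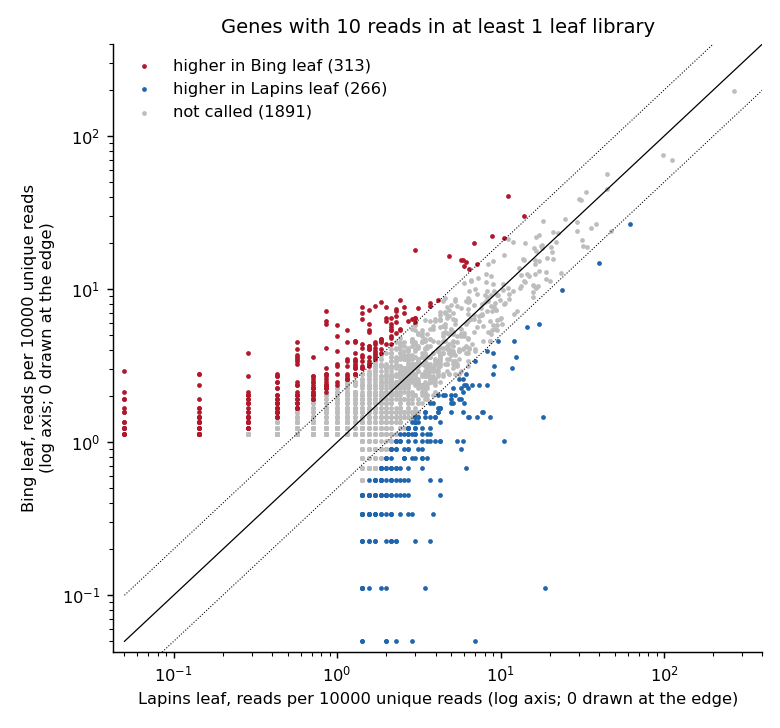
Share of each gene in ‘Bing’ leaf (vertical) against ‘Lapins’ leaf (horizontal), in reads per 10000 unique reads on log axes, for the 2470 genes with 10 reads in at least 1 leaf library; the solid line marks equal shares and the dotted lines a 2-fold ratio. The 313 genes called higher in ‘Bing’ leaf lie above the upper dotted line and the 266 called higher in ‘Lapins’ leaf below the lower one.

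The genes called higher in ‘Bing’ leaf held 11.3% of the ‘Bing’ reads and 3.55% of the ‘Lapins’ reads. Those called higher in ‘Lapins’ leaf held 3.09% of the ‘Bing’ reads and 10.1% of the ‘Lapins’ reads. Among called genes read in both libraries, the fold was 5 or more for 82 on the ‘Bing’ side and 55 on the ‘Lapins’ side. A further 20 genes on the ‘Bing’ side and 7 on the ‘Lapins’ side were at 0 in the other library. With the 0 set to the floor of 3 reads, these were 2.62-fold to 6.82-fold higher in ‘Bing’ leaf and 4.24-fold to 20.8-fold higher in ‘Lapins’ leaf. The fold so taken reached 5 for 1 and 5 of them. It leaves out the counting error of the library that was read. Most called genes were thinly read. Their median was 25 reads over both libraries on the ‘Bing’ side and 23.5 on the ‘Lapins’ side.

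A larger part of the calls passed the adjustment where genes were more deeply read. Among the 1157 genes with 10 to 24 reads over both libraries, 147 were called higher in ‘Bing’ leaf and 136 in ‘Lapins’ leaf, and 27 of these calls passed the adjusted p. With 25 to 49 reads, 99 and 84 genes were called and 42 of these calls passed, and with 50 to 99 reads 53 and 35 were called and 59 passed. Among the 169 genes with 100 reads or more, 14 were called higher in ‘Bing’ leaf and 11 in ‘Lapins’ leaf, and 24 of these passed. The median absolute log2 ratio was 0.84, 0.56, 0.53 and 0.44 in classes of 10 to 24, 25 to 49, 50 to 99 and 100 or more reads over both libraries.

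Descriptions were at hand for 427 genes on 13 scaffolds of the genome assembly, and 212 of them had a read in these 2 libraries. Of the 52 described genes with 10 reads in at least 1 library, 5 (9.62%) were called higher in ‘Bing’ leaf, beside 12.7% of all genes at that depth. On the ‘Lapins’ side 8 (15.4%) were called, beside 10.8%. The remaining 566 called genes have no description here. For each of the 39 described genes that were read deeply enough but not called, the exact interval of the ratio held 1.

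The clearest described difference on the ‘Bing’ side was that of a single gene of stress signalling. A probable WRKY transcription factor 40 (Pav_sc0000890.1_g500.1.mk) had 57 reads in ‘Bing’ leaf and 10 in ‘Lapins’ leaf, or 6.40 and 1.43 per 10000. In Arabidopsis WRKY40 represses or tunes genes of the response to pathogens and to abscisic acid. Its ratio of 4.49 (2.27 to 9.85, exact p = 7.29e-07) was the only one of the 5 on this side that kept its call after adjustment (Z-test adjusted p = 3.34e-04). A second gene with the same description, chosen here after its values were seen (Pav_sc0000890.1_g480.1.mk), had 2 reads in ‘Bing’ leaf and 1 in ‘Lapins’ leaf.

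Allene oxide synthase (Pav_sc0000890.1_g1300.1.mk), the chloroplast enzyme that commits a lipid hydroperoxide to jasmonate, had 38 reads in ‘Bing’ leaf and 11 in ‘Lapins’ leaf. Its share ratio was 2.72 (1.36 to 5.90, exact p = 0.00224). A TIFY 6B-like gene (Pav_sc0000893.1_g130.1.mk), of the family that holds the JAZ repressors of jasmonate response, had 28 reads in ‘Bing’ leaf and 22 in ‘Lapins’ leaf, a ratio of 1.00 (0.553 to 1.84). A call was thus made for the enzyme of hormone synthesis and not for this member of the repressor family.

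The list of jasmonate, stress and defence signalling held 41 genes, of which 19 were read and 6 reached 10 reads. Of these, 2 were called higher in ‘Bing’ leaf and 1 in ‘Lapins’ leaf, beside 12.7% and 10.8% of all genes. The median log2 ratio was 0.29, beside 0.14 over all genes. The member on the ‘Lapins’ side was a mitogen-activated kinase 4-like gene (Pav_sc0000886.1_g560.1.mk) with 3 reads in ‘Bing’ leaf and 10 in ‘Lapins’ leaf, a ratio of 0.236 (0.0418 to 0.917, exact p = 0.0230). In Arabidopsis this kinase restrains salicylate-dependent defence and is needed for jasmonate responses. A PLANT CADMIUM RESISTANCE 2-like gene (Pav_sc0000893.1_g090.1.mk), of a family of metal efflux proteins, had 19 reads in ‘Bing’ leaf and 18 in ‘Lapins’ leaf and was not called.

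Adagio 3 (Pav_sc0000893.1_g420.1.mk), known in Arabidopsis as a blue-light receptor and F-box protein of the day-length pathway to flowering, had 35 reads in ‘Bing’ leaf and 12 in ‘Lapins’ leaf. The ratio was 2.30 (1.16 to 4.86, exact p = 0.0119). It was the only one of 9 light and clock genes with 10 reads in a leaf library. A pair of genes described as the response regulator-like APRR1, part of the central clock, stayed under that depth. Chosen here after their values were seen, they had 3 reads in ‘Bing’ leaf and 7 in ‘Lapins’ leaf (Pav_sc0000877.1_g1180.1.mk) and 2 and 0 (Pav_sc0000877.1_g1170.1.mk).

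Chorismate mutase 2 (Pav_sc0000890.1_g420.1.mk), which turns chorismate to prephenate on the way to phenylalanine and tyrosine, had 28 reads in ‘Bing’ leaf and 9 in ‘Lapins’ leaf. Its ratio was 2.45 (1.12 to 5.90, exact p = 0.0193). The hepatoma-derived growth factor-related 2 gene (Pav_sc0000890.1_g530.1.mk), named after a human chromatin-associated protein, had 31 reads in ‘Bing’ leaf and 9 in ‘Lapins’ leaf, a ratio of 2.71 (1.26 to 6.47, exact p = 0.00626). The adjusted Z-test p of these genes was 0.349 for chorismate mutase 2 and 0.208 for the growth factor-related gene. That of allene oxide synthase was 0.117 and that of adagio 3 was 0.299.

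On the ‘Lapins’ side the calls included 3 chloroplast genes. Ribulose-phosphate 3-epimerase, written in the table as ribulose-phosphate 3- chloroplastic (Pav_sc0000877.1_g1130.1.mk), had 30 reads in ‘Bing’ leaf and 49 in ‘Lapins’ leaf. This enzyme of the Calvin cycle had a ratio of 0.482 (0.295 to 0.774, exact p = 0.00143). A chloroplast phospholipid hydroperoxide glutathione peroxidase (Pav_sc0000890.1_g240.1.mk), which reduces oxidised membrane lipids, had 10 reads in ‘Bing’ leaf and 21 in ‘Lapins’ leaf, a ratio of 0.375 (0.158 to 0.832, exact p = 0.0103). A photosynthetic NDH subunit of subcomplex B (Pav_sc0000877.1_g940.1.mk), part of the complex that returns electrons around photosystem I, had 4 reads in ‘Bing’ leaf and 10 in ‘Lapins’ leaf. Its exact interval, 0.0721 to 1.09 around 0.315, held 1 and its exact p was 0.0566, while the Z-test p was 0.0390.

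The other well-read photosynthetic genes were not called. Pav_sc0000877.1_g910.1.mk, described as chlorophyll a-b binding and so of the light-harvesting antenna, had 57 reads in ‘Bing’ leaf and 48 in ‘Lapins’ leaf, a ratio of 0.935 (0.625 to 1.40). A chloroplast gene described only as geranylgeranyl diphosphate (Pav_sc0000877.1_g840.1.mk) had 35 and 39 reads, a ratio of 0.706 (0.434 to 1.14). A TIC short-chain dehydrogenase-like gene (Pav_sc0000886.1_g120.1.mk), of the chloroplast import machinery, had 26 reads in ‘Bing’ leaf and 15 in ‘Lapins’ leaf.

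Over the photosynthesis and chloroplast list, 19 of 22 genes were read and 10 reached 10 reads, of which 0 were called higher in ‘Bing’ leaf and 3 higher in ‘Lapins’ leaf, beside 12.7% and 10.8% of all genes. The adjusted Z-test p was 0.0824 for ribulose-phosphate 3-epimerase, 0.246 for the glutathione peroxidase and 0.51 for the NDH subunit. Allene oxide synthase, also a chloroplast enzyme and called higher in ‘Bing’ leaf, was counted in the stress list instead. A gene described as indeterminate-domain chloroplastic-like, called higher in ‘Lapins’ leaf, was on no list. The median log2 ratio of the chloroplast list was -0.28, beside 0.14 over all genes, with a range of -1.57 to 0.45. The list held 233 reads in ‘Bing’ leaf and 236 in ‘Lapins’ leaf, or 26.2 and 33.7 per 10000. Both libraries thus carried the leaf markers. The list of flower, seed and meristem genes held 3 reads over its 11 genes in ‘Bing’ leaf and 1 read in ‘Lapins’ leaf, and the 4 genes of stomatal lineage and phloem held 0 and 4 reads. That list does not hold every such gene. OBERON 3, a meristem gene in Arabidopsis, was on none of the lists and had 19 reads in ‘Bing’ leaf and 13 in ‘Lapins’ leaf. A homeobox BEL1 homolog, also on none, had 10 and 13.

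A pair of cytochrome P450 genes described as CYP82D47-like were called higher in ‘Lapins’ leaf. P450 enzymes add oxygen to small molecules, often in defence compounds and pigments, and the substrate of these genes is not described. The first (Pav_sc0000890.1_g1120.1.mk) had 0 reads in ‘Bing’ leaf and 14 in ‘Lapins’ leaf (exact p = 1.03e-05, Z-test adjusted p = 0.00388). With its 0 set to the floor of 3 reads, it was 5.93-fold lower in ‘Bing’ leaf. The exact upper bound of its ratio, which also covers the counting error of the 14 reads, was 0.237. The second, Pav_sc0000890.1_g1250.1.mk, was thinly read, with 2 reads in ‘Bing’ leaf and 10 in ‘Lapins’ leaf, a ratio of 0.157 (0.0168 to 0.739, exact p = 0.00748). In all 8 genes on this scaffold carry the description, and 3 of them had unique leaf reads, 2 in ‘Bing’ leaf and 25 in ‘Lapins’ leaf together. Reads shared between near-identical genes are left out of the unique count. Over the 8 genes these were 4, all in ‘Lapins’ leaf on Pav_sc0000890.1_g1190.1.br, which had 0 unique reads in both leaf libraries. Whether the unique reads were placed on the right copy was not tested.

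Among described genes read in both libraries, the lowest ratio on the ‘Lapins’ side was that of an indeterminate-domain chloroplastic-like gene (Pav_sc0000893.1_g1250.1.mk), of a plant zinc finger family. It had 3 reads in ‘Bing’ leaf and 17 in ‘Lapins’ leaf, a ratio of 0.139 (0.0261 to 0.480, exact p = 3.53e-04, Z-test adjusted p = 0.0223). The neighbouring indeterminate-domain gene, chosen here after its values were seen (Pav_sc0000893.1_g1240.1.mk), had 6 reads in ‘Bing’ leaf and 9 in ‘Lapins’ leaf. A probable xyloglucan endotransglucosylase hydrolase 28 (Pav_sc0000893.1_g780.1.mk), which cuts and rejoins a wall polysaccharide, had 8 and 15 reads. Its ratio was 0.420 with an exact interval of 0.154 to 1.05, which held 1, and its exact p was 0.0567, while the Z-test p was 0.0408.

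Of the 8 genes called higher in ‘Lapins’ leaf, the first P450 gene and the indeterminate-domain gene passed the adjusted p. Fisher's exact test made no call for the NDH subunit or the xyloglucan gene. The plot of ratios gives these genes with their exact intervals beside the named genes that were not called.

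**Figure D2:**
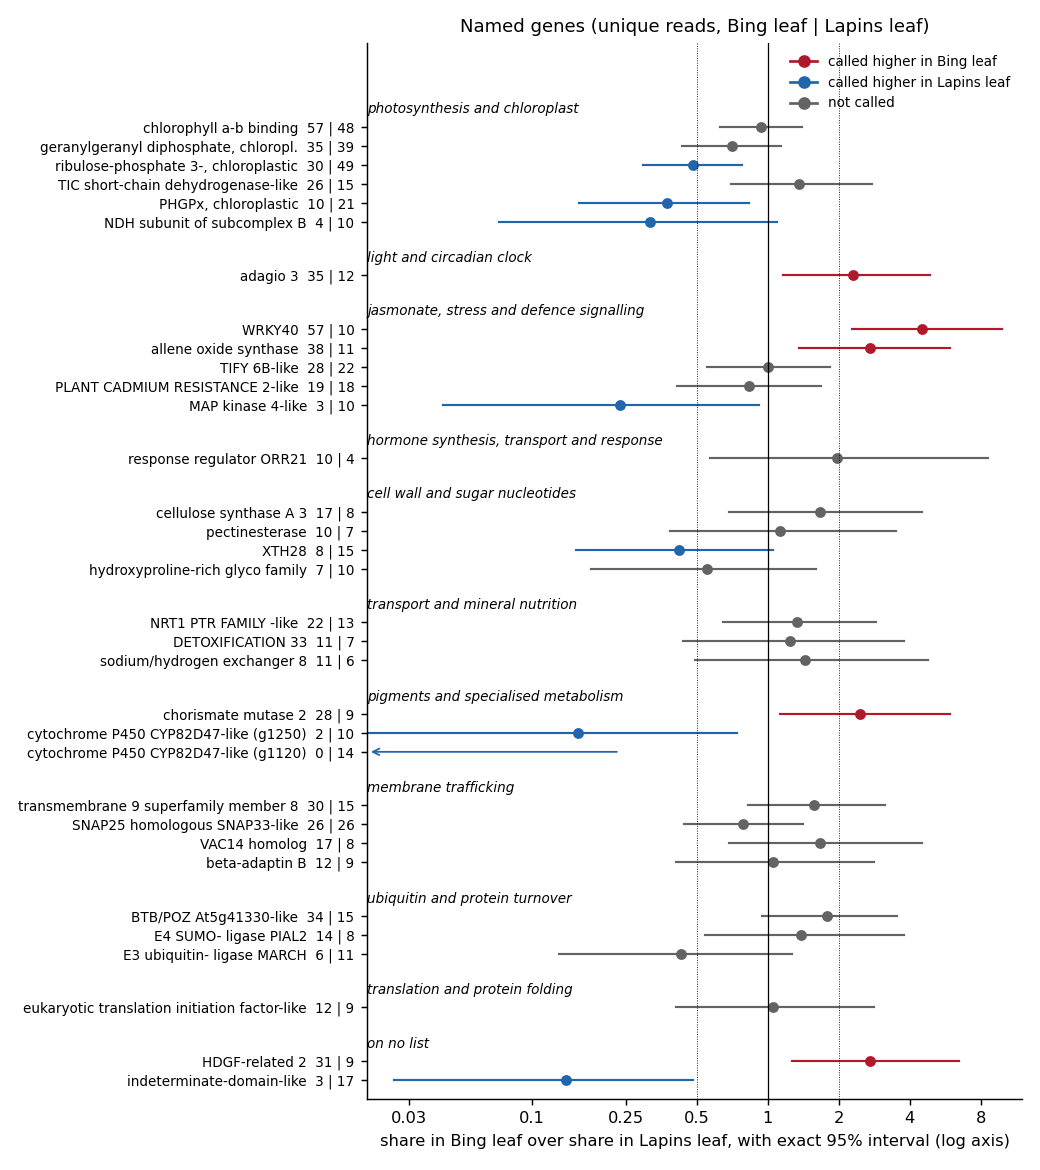
Share in ‘Bing’ leaf over share in ‘Lapins’ leaf for the 33 named genes with a description, by list, on a log axis, with exact 95% intervals and the unique reads of ‘Bing’ leaf and ‘Lapins’ leaf beside each name; the arrow marks a gene at 0 reads in ‘Bing’ leaf and runs down from its upper bound of 0.237, and intervals are cut at the left edge. The WRKY40 interval starts at 2.27, whereas the intervals of the genes that were not called all cross the line at 1.

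The lists of growth and housekeeping genes held at most 5 members each at this depth. Over all genes 12.7% were called higher in ‘Bing’ leaf and 10.8% in ‘Lapins’ leaf, and the median log2 ratio was 0.14. At those shares a list this small can hold 0 calls without differing from all genes. In the cell wall list, 10 of 19 genes were read, 4 reached 10 reads and the xyloglucan gene was the 1 called. Pav_sc0000882.1_g140.1.mk, a cellulose synthase of the complex that lays down primary wall cellulose (catalytic subunit 3), had 17 reads in ‘Bing’ leaf and 8 in ‘Lapins’ leaf, a ratio of 1.67 (0.684 to 4.48). A pectinesterase (Pav_sc0000893.1_g020.1.mk), which removes methyl groups from pectin, had 10 and 7 reads, and a hydroxyproline-rich glycoprotein gene (Pav_sc0000886.1_g250.1.mk) had 7 and 10. The list's median log2 ratio was -0.35.

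In membrane trafficking 5 of 13 genes reached 10 reads and 0 were called, with a median log2 ratio of 0.50. The transmembrane 9 superfamily member 8 gene (Pav_sc0000890.1_g360.1.mk), of the Golgi and endosomes, had 30 reads in ‘Bing’ leaf and 15 in ‘Lapins’ leaf, a ratio of 1.57 (0.821 to 3.15). A SNAP33-like gene (Pav_sc0000877.1_g1610.1.mk), a membrane fusion protein of cytokinesis and defence secretion in Arabidopsis, had 26 reads in each library and a ratio of 0.787 (0.439 to 1.41). A VAC14 homolog (Pav_sc0000893.1_g350.1.mk) had 17 and 8 reads, and the clathrin adaptor beta-adaptin B (Pav_sc0000886.1_g360.1.mk) had 12 and 9. All 4 intervals held 1.

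In ubiquitin and protein turnover 3 of 24 genes reached 10 reads and 0 were called. A BTB/POZ domain gene (Pav_sc0000886.1_g240.1.mk), of a family of adaptors for ubiquitin ligases, had 34 reads in ‘Bing’ leaf and 15 in ‘Lapins’ leaf, a ratio of 1.78 (0.946 to 3.53, exact p = 0.0620). The SUMO ligase gene PIAL2 (Pav_sc0000886.1_g800.1.mk) had 14 and 8 reads and the ubiquitin ligase gene MARCH (Pav_sc0000877.1_g760.1.mk) had 6 and 11. The list's median log2 ratio was 0.43.

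The 3 transporters with 10 reads all had ratios above 1 with intervals that held 1, a median log2 ratio of 0.39. An NRT1/PTR family gene (Pav_sc0000893.1_g1130.1.mk), of the nitrate and peptide transporters, had 22 reads in ‘Bing’ leaf and 13 in ‘Lapins’ leaf. DETOXIFICATION 33 (Pav_sc0000890.1_g1470.1.mk) had 11 and 7 reads and sodium hydrogen exchanger 8 (Pav_sc0000893.1_g1030.1.mk) had 11 and 6. A single hormone gene reached 10 reads, the response regulator ORR21 (Pav_sc0000893.1_g450.1.mk), of the cytokinin pathway in rice. It had 10 reads in ‘Bing’ leaf and 4 in ‘Lapins’ leaf, a ratio of 1.97 (0.568 to 8.60). A translation initiation factor-like gene (Pav_sc0000890.1_g250.1.mk) had 12 and 9 reads, a ratio of 1.05.

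The smallest p-values belonged to genes with no description. On the ‘Bing’ side Pav_sc0000143.1_g500.1.mk had 362 reads in ‘Bing’ leaf and 78 in ‘Lapins’ leaf, a ratio of 3.65 (2.85 to 4.73). Pav_sc0000129.1_g330.1.mk had 161 and 21, a ratio of 6.03 (3.82 to 10). On the ‘Lapins’ side Pav_sc0006450.1_g010.1.br had 1 read in ‘Bing’ leaf and 131 in ‘Lapins’ leaf, a ratio of 0.00601 (1.51e-04 to 0.0341). Pav_sc0000907.1_g490.1.mk had 13 and 128, a ratio of 0.0799 (0.0414 to 0.142). All 4 were still called with adjusted p. In ‘Rainier’ leaf they had 73, 33, 4 and 46 reads in the same order, and Pav_sc0006450.1_g010.1.br had 0 reads in all 3 fruit libraries.

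The called genes were spread over 338 of the 724 scaffolds with a gene at this depth, and 83 scaffolds held calls in both directions. Next to a gene called higher in ‘Bing’ leaf, 13% of the neighbours at this depth on the same scaffold were called the same way, beside 12.7% of all genes. Next to a gene called higher in ‘Lapins’ leaf the share was 12.1%, beside 10.8%. Neighbours were taken in the order of the gene identifiers.

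Genes at 0 on one side were looked up in the other libraries. Of the 20 genes with 10 to 26 reads in ‘Bing’ leaf and 0 in ‘Lapins’ leaf, 19 had reads in ‘Rainier’ leaf and 7 were also at 0 in ‘Lapins’ fruit. Of those 7, only 5 were read in ‘Bing’ fruit and only 2 had 10 reads there. Of the 7 genes with 10 to 49 reads in ‘Lapins’ leaf and 0 in ‘Bing’ leaf, all 7 had reads in ‘Rainier’ leaf, 2 to 7 each. In ‘Bing’ fruit 2 of them were also at 0, but 0 of these 2 were read in ‘Lapins’ fruit. The same counts over all genes at this depth are not given here, so nothing particular to the genes at 0 is read from them.

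The leaf of ‘Rainier’, another cultivar, from San Francisco de Mostazal, gives a point of reference that the calls did not use. On a log scale with 0.5 reads added, it lay nearer to ‘Bing’ leaf for 152 of the 313 genes called higher in ‘Bing’ leaf (48.6%) and nearer to ‘Lapins’ leaf for 161 (51.4%). For the 266 genes called higher in ‘Lapins’ leaf these numbers were 122 (45.9%) and 144 (54.1%). Over all 2470 genes it was nearer to ‘Bing’ leaf for 46.6% and nearer to ‘Lapins’ leaf for 53.4%. These shares depended on the scaling. With TMM library sizes 274 genes were called on the ‘Bing’ side and 290 on the ‘Lapins’ side. ‘Rainier’ leaf was nearer to ‘Lapins’ leaf for 44.5% and 59.3% of them. The TMM share over all 2470 genes is not given here, so these values have no baseline. With the library sums as before, ‘Rainier’ leaf lay between the libraries for 212 of the 313 genes on the ‘Bing’ side, 187 of the 266 on the ‘Lapins’ side and 865 of all 2470. A call requires a 2-fold gap, so more room lies between the libraries for called genes by selection.

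Single genes differed in this respect. WRKY40 had 24 reads in ‘Rainier’ leaf, or 3.42 per 10000, between 6.40 in ‘Bing’ leaf and 1.43 in ‘Lapins’ leaf. Allene oxide synthase also lay between, with 2.99 per 10000 in ‘Rainier’ leaf. Chorismate mutase 2 had 5.13 per 10000 in ‘Rainier’ leaf, above ‘Bing’ leaf at 3.15. Adagio 3, with 1.57 per 10000, lay beside ‘Lapins’ leaf at 1.71. Ribulose-phosphate 3-epimerase at 7.55 lay beside ‘Lapins’ leaf at 6.99 and far from ‘Bing’ leaf at 3.37, as the plot of the 3 leaf libraries shows.

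**Figure D3:**
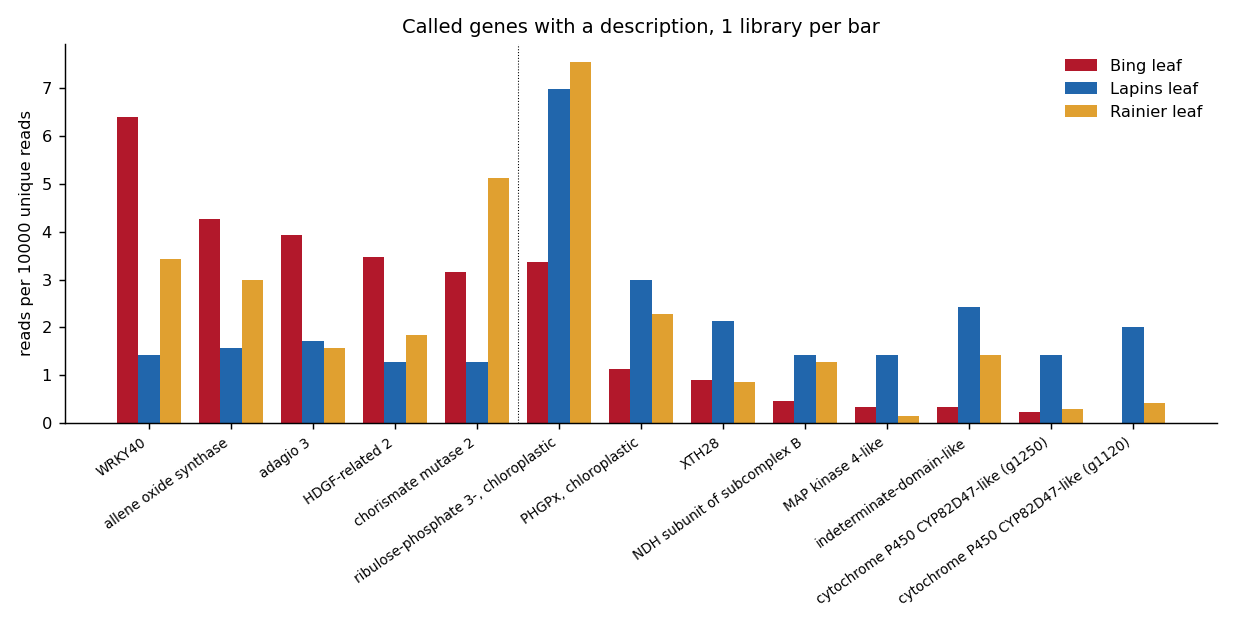
Reads per 10000 unique reads in ‘Bing’, ‘Lapins’ and ‘Rainier’ leaf for the 13 called genes with a description, 1 library per bar and no replicates; genes left of the dotted line were called higher in ‘Bing’ leaf and those right of it higher in ‘Lapins’ leaf. The ‘Rainier’ bar of chorismate mutase 2 (5.13) is above that of ‘Bing’ leaf (3.15), and that of ribulose-phosphate 3-epimerase (7.55) is the highest in the plot.

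The fruits of the same cultivars, from the same sites, tell whether a leaf difference recurred in another tissue. Of the genes called higher in ‘Bing’ leaf, 195 had 10 reads in at least 1 of the ‘Bing’ and ‘Lapins’ fruit libraries, and 104 of these (53.3%) were higher in ‘Bing’ fruit. That share was 53.6% over all 1512 genes with that depth in both tissues. Of the genes called higher in ‘Lapins’ leaf, 124 had that depth and 75 (60.5%) were higher in ‘Lapins’ fruit, beside 46.4% of all genes. The median log2 ratio in fruit was 0.06 for the genes on the ‘Bing’ side and -0.25 for those on the ‘Lapins’ side, beside 0.09 over all genes. The scatter of leaf and fruit ratios has called genes in every quadrant.

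**Figure D4:**
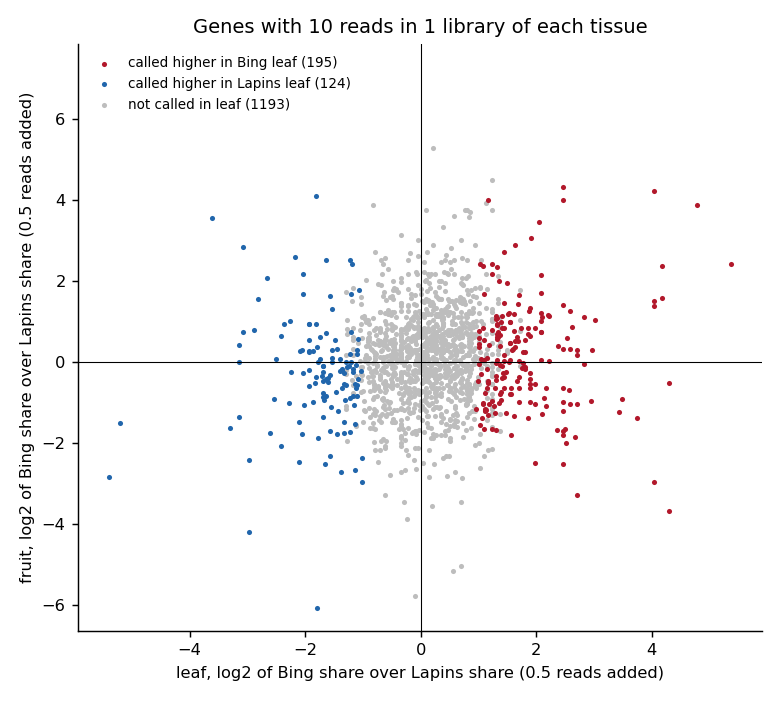
Log2 of the ‘Bing’ share over the ‘Lapins’ share in leaf (horizontal) and in fruit (vertical), 0.5 reads added, for the 1512 genes with 10 reads in at least 1 of the libraries of each tissue. Of the 195 genes called higher in ‘Bing’ leaf 104 lie above the horizontal line, and of the 124 called higher in ‘Lapins’ leaf 75 lie below it.

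The ratio of ‘Bing’ to ‘Lapins’ was compared between leaf and fruit for the 32 named genes with a fruit read, by Zelen's exact test with Benjamini-Hochberg adjustment, and 5 differed. All 5 had been called in leaf on the same leaf reads, a choice that favours a fruit ratio nearer to 1 or on the other side, so these p-values are not independent of it. Adjusted instead over all 1512 genes with the depth in both tissues, an alternative added after the data were seen, the same 5 passed. In all 223 genes (14.7%) passed, 100 of the 319 called in leaf and 123 of the 1193 not called in leaf. WRKY40 had 10 reads in ‘Bing’ fruit and 16 in ‘Lapins’ fruit, a ratio of 0.400 (0.162 to 0.937) against 4.49 in leaf (exact test, adjusted p = 2.92e-05). Chorismate mutase 2 had 29 and 59, a ratio of 0.314 (0.194 to 0.498) against 2.45 in leaf (adjusted p = 1.87e-05). Allene oxide synthase had 17 and 21, a ratio of 0.518 (0.257 to 1.03) against 2.72 in leaf (adjusted p = 0.00479). All 3 enzymes and factors were thus on the ‘Lapins’ side in fruit, with an interval below 1 for the first 2.

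The second CYP82D47-like gene went the other way (Pav_sc0000890.1_g1250.1.mk). It had 128 reads in ‘Bing’ fruit and 52 in ‘Lapins’ fruit, a ratio of 1.57 (1.13 to 2.22) against 0.157 in leaf (exact test, adjusted p = 0.00576). The first had 8 reads in ‘Bing’ fruit and 15 in ‘Lapins’ fruit, on the ‘Lapins’ side in both tissues. Adagio 3 was on the ‘Bing’ side in both. Its 37 reads in ‘Bing’ fruit and 1 in ‘Lapins’ fruit gave a ratio of 23.7 (3.99 to 960.0), and the difference from leaf did not pass the adjustment (adjusted p = 0.0633).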

How the data were processed

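RNA of sweet cherry leaves was sequenced by pyrosequencing. The authors trimmed the reads, mapped them to 43673 predicted coding sequences in CLC Genome Workbench and deposited, for each gene and library, raw counts, 1 column for unique reads and 1 for total reads. TPM and RPKM columns were not used here. Replicates were not made, and the labels alone set the groups.

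Shares are unique reads over the library sum (89009 in ‘Bing’ leaf, 70058 in ‘Lapins’ leaf). The Z-test follows the study's method. The count minimum was 10 reads in at least 1 library, the fold 2 and p at most 0.05. The study also asked for 10 reads but does not say in which library, so this reading was a choice made here. For this pair the study lists far fewer genes in each direction, and a larger part of them on the ‘Bing’ side than was called here. Neither its counts nor that balance was reproduced. Intervals are Clopper-Pearson, at 95%. The count model alternatives (edgeR 4.0.16 in R 4.3.3) could not be the main test with 1 library a side. The Z-test, its intervals and Zelen's test were tried on simulated counts that held counting error alone. That trial says nothing on the spread between trees. Alternatives covered count minimums, Fisher's test, adjusted p, TMM, library sums without the most read genes, total reads, thinning, a fold of 3 and edgeR's exact test.

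Descriptions came from the 581 rows of the study's annotation table used here, a part of that table, so no set test was run. No identifier matched the RefSeq gene table and no sequence is shown. Named were every called gene with a description, up to 4 of the most read members of each of 12 lists, and 2 genes without a description per direction by the smallest p. The members and lists were chosen with earlier results of these data known.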

Additional observations from a re-analysis of the deposited data

Results flagged for a closer look

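For 5 of the named genes the ratio of ‘Bing’ to ‘Lapins’ differed between leaf and fruit by Zelen's exact test, with p adjusted over the 32 genes tested. All 5 had been called in leaf on the same leaf reads, and all 5 also passed with p adjusted over 1512 genes. So did 14.7% of those 1512 genes: 100 of the 319 called in leaf and 123 of the 1193 not called in leaf. The smallest p was that of Pav_sc0000129.1_g330.1.mk, which has no description. It had 161 reads in ‘Bing’ leaf and 21 in ‘Lapins’ leaf, but 28 in ‘Bing’ fruit and 29 in ‘Lapins’ fruit (exact test, adjusted p = 2.02e-09). Chorismate mutase 2 had a ratio of 2.45 in leaf and 0.314 in fruit (adjusted p = 1.87e-05). The ratio of WRKY40 was 4.49 in leaf and 0.400 in fruit (adjusted p = 2.92e-05). For allene oxide synthase it was 2.72 in leaf and 0.518 in fruit (adjusted p = 0.00479), and for Pav_sc0000890.1_g1250.1.mk, described as CYP82D47-like, it was 0.157 in leaf and 1.57 in fruit (adjusted p = 0.00576). These p-values cover counting error in 4 libraries, and a repeat with other trees was not part of the series.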

How the results depend on the processing

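The number of called genes followed the count minimum, the adjustment and the fold. Genes higher in ‘Bing’ leaf and in ‘Lapins’ leaf numbered 313 and 266 as reported. They numbered 84 and 89 with 10 reads in both libraries, 168 and 111 with 20 reads in at least 1, 199 and 164 with 20 reads over both, 541 and 439 with 5 reads in at least 1, and 541 and 500 with no minimum. Adjusted p left 70 and 82 by the Z-test and 73 and 79 by Fisher's exact test, and a fold of 3 left 200 and 169. The edgeR exact test, whose spread came from all 6 libraries and is not a replicate spread, gave 0 and 0. Under TMM the counts were 274 and 290, so that the ‘Lapins’ side became the larger, and under the other alternatives they stayed within 1.5 times. Of the 13 described calls, 13 held under TMM, under total reads and without the most read genes, 11 under Fisher's exact test, 10 with the ‘Bing’ library thinned, 9 with 20 reads over both libraries, 7 with 20 reads in at least 1, 6 at a fold of 3, 5 with 10 reads in both, 3 with adjusted p and 0 with the edgeR exact test. With 20 reads over both libraries the median log2 ratio of the pigment list was 1.24 (1 gene) in place of -2.42 (3 genes), and that of the stress list was 0.70 in place of 0.29. The share of genes on the ‘Bing’ side with ‘Rainier’ leaf nearer to ‘Lapins’ leaf was 44.5% under TMM and 51.4% without, and on the ‘Lapins’ side 59.3% and 54.1%. No TMM share over all genes is given beside them. The ratios of 5 named genes differed between leaf and fruit under total reads and with p adjusted over 1512 genes alike. No paired analysis was possible because each cultivar had 1 leaf library.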

Other observations

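Described genes on none of the lists, picked here after their values were seen, gave further values for the leaf libraries. A puromycin-sensitive aminopeptidase, a protein-trimming enzyme, had 49 reads in ‘Bing’ leaf and 40 in ‘Lapins’ leaf, a ratio of 0.964 (0.622 to 1.5). A homeobox BEL1 homolog, of a family of developmental transcription factors, had 10 and 13 reads, and OBERON 3, a meristem gene in Arabidopsis, had 19 and 13. CHROMATIN REMODELING 19 had 10 reads in ‘Bing’ leaf and 2 in ‘Lapins’ leaf. Its ratio of 3.94 had an exact interval of 0.839 to 36.9 and it was not called. A gene with a domain of unknown function (DUF868) had 19 reads in ‘Bing’ leaf and 7 in ‘Lapins’ leaf, a ratio of 2.14 (0.860 to 6.01), also not called.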
